A study of Mus musculus with 40 samples.

Results

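The 10 genes described here encode the replicative helicase subunits Mcm2, Mcm3, Mcm4, Mcm5, Mcm6 and Mcm7 and the GINS subunits Gins1, Gins2, Gins3 and Gins4. They were chosen by name, as subunits of the helicase and of GINS, out of 55536 Ensembl genes counted in mouse lung, and all 10 passed the filter on low counts in both injury models. RNA sequencing was done on 40 left lungs of C57BL/6 mice, in 8 groups of 5 libraries, to follow what saracatinib, an inhibitor of Src family kinases, does to gene expression in fibrotic lungs.

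MCM proteins 2 to 7 form a ring that is loaded onto DNA at replication origins before S phase, the step called licensing. The loaded ring is inactive until Cdc45 and GINS, a complex of the 4 Gins proteins, join it to form the active helicase that unwinds DNA at the fork. Their genes are known targets of E2F transcription factors, and they are widely used as marks of cells that are cycling or ready to cycle, which are few in the resting adult lung.

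In the bleomycin model, bleomycin (1.5 U/kg), which breaks DNA and injures the alveolar epithelium, or saline was given by the oropharyngeal route. In the other model, mice received Ad-TGF-beta, an adenovirus that expresses mouse TGF-beta1 from the CMV promoter, or the empty vector, by the intranasal route. Each of these 4 treatments was combined with saracatinib at 20 mg/kg or with its vehicle, by gavage once daily from day 10 to day 27, and lungs were taken on day 28. The control groups of the Ad-TGF-beta model thus carried an adenovirus too, and saline lungs did not. The animals' ages and the sex behind each library are not given in the labels, and mice of both sexes were studied. The labels call the 5 libraries of a group replicates without stating that each is 1 mouse, so p-values measure the spread between these samples. Replicates are numbered 1 to 5 in the order in which the samples are listed, so equal numbers in different groups pair nothing.

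Library totals ran from 8812233 to 17336972 counts. Levels are in CPM, a gene's count relative to the library's total, after TMM scaling, which adjusts library sizes for composition. A gene is called when the p-value of edgeR's quasi-likelihood test, adjusted by Benjamini-Hochberg over all genes tested, is under 0.05, and an SE is that of the log2 fold change. As a check of the label lung, all listed markers of alveolar type 2 cells, capillary endothelium and ciliated cells were detected. The libraries farthest from their group on the first principal components were replicate 5 of saline saracatinib, of saline vehicle and of empty vector vehicle, and replicate 1 of empty vector vehicle. In whole lung, a change in the number of cells of a type and a change in RNA per cell cannot be told apart.

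The sequences upstream of 4 of the genes are shown because they hold words of the E2F type. The table of RefSeq promoters (GRCm38.p6) held windows for 6 of the 10 genes: Mcm2, Mcm3, Mcm5, Mcm6, Mcm7 (2 windows) and Gins3. Each window spans 250 bases before to 50 after the start, and 4 words of 8 bases, TTTCCCGC, TTTCGCGC, TTTGCCGC and TTTGGCGC, were searched on both strands. Of all 32544 windows, 742 (2.28%) held at least 1 of them. Of the 7 windows of these genes, 5 (71.4%) held one (Mcm3, Mcm5, Mcm6, Mcm7 and Gins3), and 24 of 89 windows (27.0%) of the other replication and cell cycle genes did. The 250 bases upstream of the RefSeq start are printed on the gene's strand, with the matching words in capitals. They are given for Mcm5 (chr8:75109259-75109508, plus), Mcm6 (chr1:128359706-128359955, minus), Mcm7 (chr5:138171884-138172133, minus) and Gins3 (chr8:95633309-95633558, plus).
Mcm5: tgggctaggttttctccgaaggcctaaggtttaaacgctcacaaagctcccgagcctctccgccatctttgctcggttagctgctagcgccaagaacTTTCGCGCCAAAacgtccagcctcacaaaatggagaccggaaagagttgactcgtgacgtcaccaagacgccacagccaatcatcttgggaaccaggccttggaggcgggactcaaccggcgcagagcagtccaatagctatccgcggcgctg
Mcm6: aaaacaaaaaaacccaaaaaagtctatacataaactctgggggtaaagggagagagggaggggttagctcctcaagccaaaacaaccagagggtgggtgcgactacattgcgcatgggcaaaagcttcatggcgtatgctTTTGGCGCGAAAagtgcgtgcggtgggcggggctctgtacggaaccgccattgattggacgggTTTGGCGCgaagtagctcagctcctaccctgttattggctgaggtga
Mcm7: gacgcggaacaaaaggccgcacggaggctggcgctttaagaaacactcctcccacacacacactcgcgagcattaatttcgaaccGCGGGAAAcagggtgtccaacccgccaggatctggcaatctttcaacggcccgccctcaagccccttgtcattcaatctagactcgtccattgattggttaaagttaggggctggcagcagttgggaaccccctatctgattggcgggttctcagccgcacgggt
Gins3: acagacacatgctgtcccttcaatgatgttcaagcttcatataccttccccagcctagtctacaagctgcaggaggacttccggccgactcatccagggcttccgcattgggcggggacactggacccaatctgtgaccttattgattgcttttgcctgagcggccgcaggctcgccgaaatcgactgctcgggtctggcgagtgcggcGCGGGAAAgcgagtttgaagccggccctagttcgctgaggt
Mcm5 carries 2 overlapping words on opposite strands, at positions -153 and -149 from the start. Mcm6 carries an overlapping pair at -110 and -106 and a further word at -47. Mcm7 has a word at -165 and, after the start, at 17, in 1 of its 2 windows. Gins3 has one at -41, while those of Mcm3 lie after the start, at 20 and 39. The window of Mcm2 held none of the 4 words. A match is a run of letters and not a measured binding site, and a window without one lacks only these letters.

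The 10 genes lie at 10 separate loci (GRCm38, GENCODE M21). The helicase genes are Mcm2 (chr6:88883474-88898780), Mcm3 (chr1:20802968-20820312), Mcm4 (chr16:15623897-15637400), Mcm5 (chr8:75109569-75128439), Mcm6 (chr1:128331590-128359664) and Mcm7 (chr5:138164583-138172422). The GINS genes are Gins1 (chr2:150905400-150931280), Gins2 (chr8:120578633-120589304), Gins3 (chr8:95633453-95645060) and Gins4 (chr8:23226616-23237659). These GENCODE bounds differ from the RefSeq starts used for the printed sequences. By them, the stretch printed for Mcm7 lies wholly within the gene, and that for Gins3 lies partly within it, its matching word included. Counts of Gins2 are the least certain, since 2758 of its 4097 exonic bases (67.3%) are also exonic in Gse1 on the opposite strand and the sources used here do not state the strand setting of the counting. Gse1 itself fell by 0.30 on the log2 scale with bleomycin (SE 0.10, adjusted p = 0.018, edgeR), the direction opposite to that of Gins2. Whether reads of Gse1 enter the counts of Gins2 was not tested. Mcm7 shares 321 exonic bases (7.25%) with Ap4m1 and 64 with Cops6, and the miRNA genes Mir25, Mir93 and Mir106b lie within it.

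Levels between genes are compared per kb of the principal transcript, in CPM per kb. In saline vehicle lungs Gins4 stood highest at 8.79 ± 0.49 (SD, n = 5), followed by Mcm7 at 8.47 ± 1.00 and Mcm6 at 7.79 ± 0.53, whose spreads overlap. Mcm4 (5.48 ± 0.39), Mcm3 (4.89 ± 0.32), Mcm2 (3.29 ± 0.30) and Mcm5 (2.58 ± 0.34) came next. The other GINS genes lay far lower, with Gins3 at 1.44 ± 0.20, Gins1 at 0.93 ± 0.36 and Gins2 at 0.16 ± 0.03. The level of Gins2 per kb is uncertain, since most of its exonic bases are also exonic in Gse1. Divided by all annotated exonic bases in place of the principal transcript, Gins4, Mcm7 and the 3 lowest genes kept their places, Mcm4 moved to the third place and Mcm5 passed Mcm2. Gins4 made up 77.8% ± 2.63 of the summed GINS level per kb in saline vehicle lungs (SD, n = 5). The lowest GINS counts were few reads: Gins2 had 5 to 9 per library in saline vehicle lungs and 24 to 74 in bleomycin vehicle lungs.

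**Figure D1:**
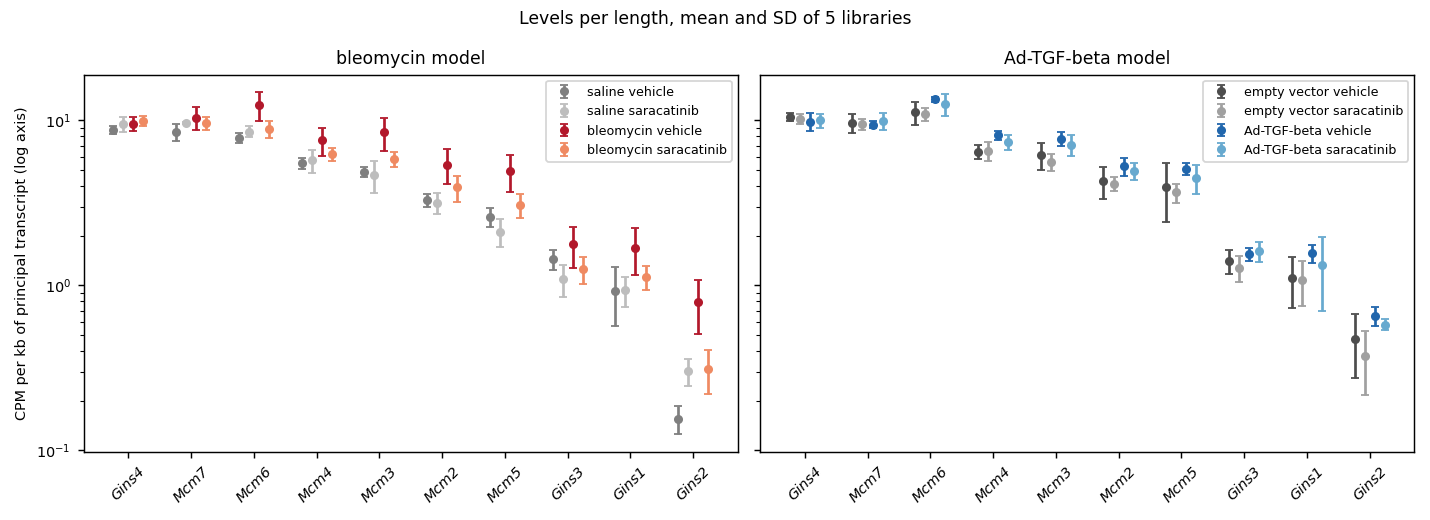
Mean level of each gene in CPM per kb of principal transcript (log axis) with the SD of 5 libraries, for the 4 groups of each model. Gins4, Mcm7 and Mcm6 stand at the top and Gins2 at the bottom in all 8 groups. The place of Gins2 is uncertain because of its overlap with Gse1.

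Transcripts of all 6 helicase genes and of 2 of the 4 GINS genes were called higher with bleomycin, Mcm7 with the least stable call. Against saline in vehicle lungs, 8 of the 10 genes were called higher, where 20.6% of all 18846 genes tested were called higher. The median log2 fold change of the 10 was 0.69, beside -0.03 over all genes. The 6 helicase genes ranged from 0.30 to 0.93, and Gins2 exceeded all of them.

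Mcm5, a subunit at the gate where the ring opens for loading, had the largest helicase change. It measured 9.32, 6.80, 9.42, 8.62 and 9.53 CPM in saline vehicle lungs and 10.7, 18.6, 21.9, 16.3 and 15.6 CPM in bleomycin vehicle lungs. Every bleomycin library lay above every saline library, and the log2 fold change was 0.93 (SE 0.17, adjusted p = 0.00030, edgeR). Mcm2, which pairs with Mcm5 at that gate, measured 11.5, 11.7, 9.72, 12.2 and 10.4 CPM with saline and 13.6, 17.3, 25.1, 16.1 and 18.6 CPM with bleomycin. It rose by 0.71 (SE 0.15, adjusted p = 0.0011, edgeR), again with no overlap of the groups.

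Mcm3 measured 16.1, 13.6, 14.4, 15.5 and 14.6 CPM in saline lungs and 16.9, 28.6, 32.3, 23.0 and 27.1 CPM in bleomycin lungs, and rose by 0.79 (SE 0.15, adjusted p = 0.00043, edgeR). Mcm4, Mcm6 and Mcm7 make up the core of the ring that holds helicase activity. Mcm6 measured 24.8, 23.6, 22.5, 21.6 and 20.9 CPM with saline and 26.9, 39.5, 46.3, 32.9 and 34.8 CPM with bleomycin, and rose by 0.67 (SE 0.11, adjusted p = 0.00013, edgeR). Mcm4 went from a mean of 19.7 to 27.2 CPM and rose by 0.46 (SE 0.12, adjusted p = 0.0045, edgeR). In these 3 genes, too, the groups did not overlap. The share of all genes without overlap was not computed, in this or the other comparisons, so lack of overlap is a description only.

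Mcm7 had the smallest log2 fold change of the ring. Its values were 26.0, 24.2, 23.2, 22.2 and 29.7 CPM with saline and 24.6, 33.7, 37.7, 29.3 and 28.5 CPM with bleomycin. The groups overlapped and the log2 fold change was 0.30 (SE 0.10, adjusted p = 0.022, edgeR). This call was lost without replicate 3 of saline vehicle (0.27, adjusted p = 0.055), without replicate 2 of bleomycin vehicle (0.26, adjusted p = 0.059) and without its replicate 3 (0.22, adjusted p = 0.076), all by edgeR. It was also lost when only the compared groups were fitted (0.32, adjusted p = 0.054, edgeR). As a share of the summed level per kb of the 6 helicase genes, Mcm7 made up 23.9% to 30.6% in saline vehicle lungs and 20.1% to 22.6% in bleomycin vehicle lungs. The share of Mcm5 was 6.29% to 8.78% with saline and 8.62% to 10.6% with bleomycin. These shares are given as a description, with no test.

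Among the GINS genes, Gins2 (Psf2) measured 0.597, 0.409, 0.695, 0.711 and 0.628 CPM with saline and 2.05, 4.23, 4.31, 2.12 and 2.71 CPM with bleomycin. The groups lay well apart, and the log2 fold change of 2.34 (SE 0.27, adjusted p = 2.6e-06, edgeR) corresponds to 5.06-fold. Gins1 (Psf1) measured between 0.522 and 1.57 CPM with saline (median 1.00) and between 1.33 and 2.70 CPM with bleomycin. The groups of Gins1 overlapped through the highest saline library, and it rose by 0.88 (SE 0.26, adjusted p = 0.0096, edgeR). Gins3 (Psf3) went from 3.62 to 4.46 CPM on average, a log2 fold change of 0.30 (SE 0.19, adjusted p = 0.21, edgeR) that did not pass. Gins4 (Sld5) held 11.9 ± 0.661 CPM with saline and 12.8 ± 1.25 CPM with bleomycin (SD, n = 5), a log2 fold change of 0.11 (SE 0.09, adjusted p = 0.32, edgeR). The GINS transcript with the highest level per kb thus had the smallest log2 fold change of the 4.

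**Figure D2:**
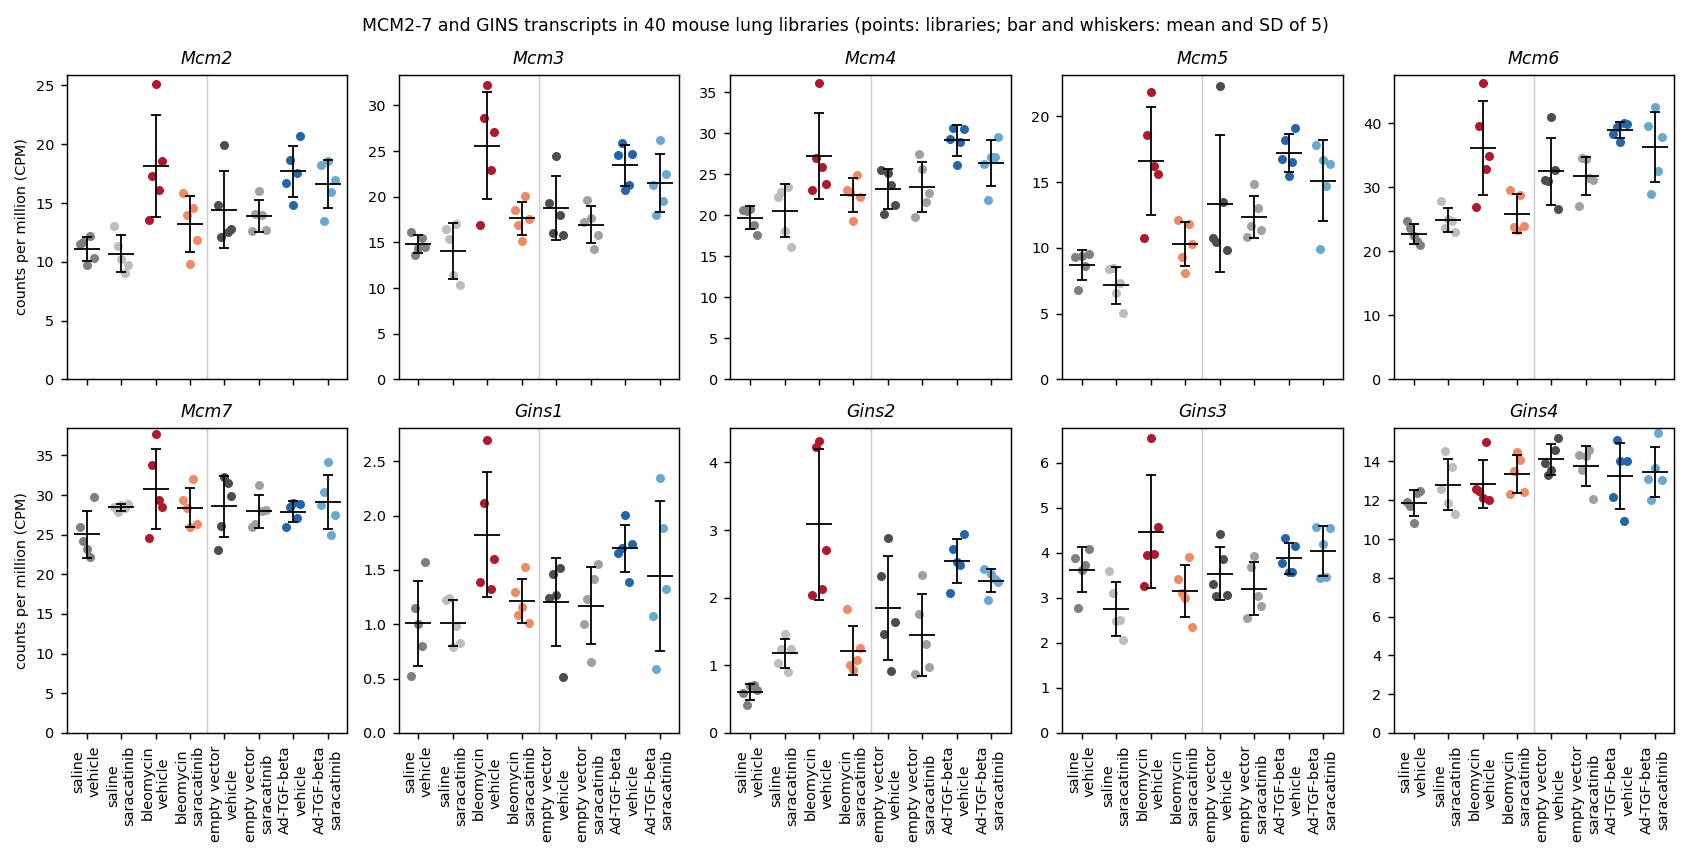
CPM of each gene in the 40 libraries (y axis from 0), with the mean and SD of the 5 libraries of each of the 8 groups. The 5 bleomycin vehicle libraries of Gins2 sit between 2.05 and 4.31 CPM, above all saline vehicle libraries, whereas Gins4 stays near its saline level.

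For all of the genes but Gins1, the SD as a percentage of the mean was larger in bleomycin vehicle than in saline vehicle lungs. It was 24.7% for Mcm5 in bleomycin vehicle lungs and 13.1% in saline vehicle lungs, and 20.2% and 6.76% for Mcm6. Replicate 3 was the highest bleomycin vehicle library for 9 of the 10 genes, and replicate 1 was the lowest for 8 of them.

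Cell type markers moved in the same comparison, each list taken whole, where 20.6% of all genes were called higher. Of 8 macrophage markers, 7 were called higher, and their summed level ran from 865 to 1761 CPM with saline and from 2502 to 3154 CPM with bleomycin. Of 6 activated fibroblast markers, 5 were called higher, with sums of 1829 to 2281 and 5075 to 12754 CPM. Of 6 T cell markers, 5 were called higher, with sums of 14.8 to 19.7 and 26.8 to 44.6 CPM. Lower calls were made for 6 of 6 ciliated, 5 of 6 striated muscle, 3 of 6 capillary endothelium and 1 of 4 mesothelium markers, where 20.3% of all genes were called lower, so that the mesothelium share is near that of all genes. B and plasma cell markers had 1 call in each direction, shares near those of all genes. Alveolar type 2, erythroid and neutrophil markers had none by edgeR, and 0 of them had an unadjusted p under 0.05. No marker was at 0 in all libraries, and the part of these shifts in the MCM and GINS changes was not tested.

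Saracatinib lowered 5 of the 10 genes in bleomycin lungs: Mcm2, Mcm3, Mcm5, Mcm6 and Gins2. Among all 18846 genes tested, 8.71% were called lower. The median of the 10 was -0.49, beside 0.01 over all genes, and 9 of the 10 log2 fold changes were negative. This comparison and that of bleomycin with saline use the same 5 bleomycin vehicle libraries, so their results are not independent.

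Gins2 had the largest decrease, from 2.05 to 4.31 CPM with vehicle to 1.83, 1.01, 0.925, 1.07 and 1.25 CPM with saracatinib. The groups did not overlap, and Gins2 fell by 1.35 on the log2 scale (SE 0.24, adjusted p = 0.0023, edgeR). Mcm5 measured 12.1, 9.30, 8.10, 11.8 and 10.3 CPM with saracatinib, so that only replicate 1 of the vehicle lungs, at 10.7 CPM, lay within the saracatinib range. Mcm5 fell by 0.69 (SE 0.17, adjusted p = 0.011, edgeR).

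Mcm6 measured 29.5, 23.8, 23.3, 28.8 and 23.9 CPM with saracatinib and fell by 0.48 (SE 0.11, adjusted p = 0.0088, edgeR). Mcm3 measured 18.5, 16.9, 15.2, 20.1 and 17.6 CPM and fell by 0.54 (SE 0.15, adjusted p = 0.023, edgeR). Mcm2 measured 15.8, 14.0, 9.79, 14.5 and 11.9 CPM and fell by 0.46 (SE 0.15, adjusted p = 0.046, edgeR). In each of these 3 genes the lowest vehicle library was replicate 1, and it lay inside the saracatinib range.

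The calls of Mcm2 and Mcm3 were the least stable. Mcm2 lost its call without any 1 of 13 of the 20 libraries, most of all without replicate 3 of bleomycin vehicle (-0.31, adjusted p = 0.17, edgeR). These were the 5 saline vehicle libraries, replicate 3 of saline saracatinib, replicates 2, 3 and 5 of bleomycin vehicle, and replicates 2, 3, 4 and 5 of bleomycin saracatinib. Mcm3 lost its call without replicate 2 or 3 of either bleomycin group, with -0.44 and adjusted p = 0.081 (edgeR) as the weakest, without replicate 3 of bleomycin vehicle. Mcm2 also lost it without the low-count filter (-0.47, adjusted p = 0.064, edgeR), with only the compared groups (-0.46, adjusted p = 0.096, edgeR) and with limma voom (-0.36, adjusted p = 0.059). The calls of Mcm5, Mcm6 and Gins2 held without each of the 20 libraries in turn.

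The other 5 genes did not pass the test. Gins1 (-0.59, SE 0.25, adjusted p = 0.11), Gins3 (-0.50, SE 0.19, adjusted p = 0.083) and Mcm4 (-0.28, SE 0.12, adjusted p = 0.13) had negative values, by edgeR. Without replicate 1 of bleomycin vehicle, Gins3 was called lower (-0.59, adjusted p = 0.045, edgeR). Mcm7 (-0.12, SE 0.10, adjusted p = 0.46) and Gins4 (0.06, SE 0.09, adjusted p = 0.70) were closest to 0 by edgeR. The share of Mcm7 in the summed helicase level per kb was 24.2% to 27.0% with saracatinib, above all 5 vehicle libraries.

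**Figure D3:**
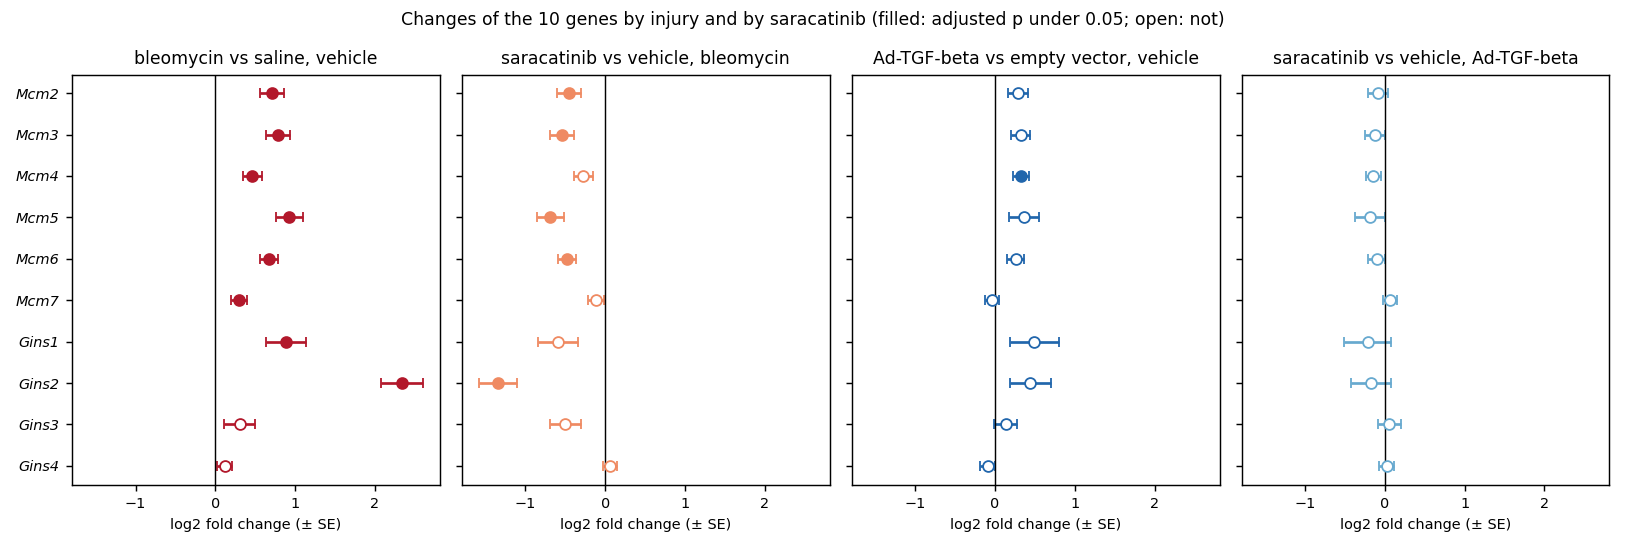
Log2 fold changes with SE (x axis) of the 10 genes in 4 comparisons of 5 against 5 libraries, with filled points for adjusted p under 0.05 by edgeR. Filled points stand at 8 genes for bleomycin, 5 for saracatinib in bleomycin lungs, 1 for Ad-TGF-beta and none for saracatinib in Ad-TGF-beta lungs.

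Under saracatinib in the same lungs, 5 of 8 macrophage markers (sums of 1901 to 2389 CPM) and 5 of 6 activated fibroblast markers (2287 to 3988 CPM) were called lower. Over all genes, 8.71% were called lower. Of the T cell markers 0 were called by edgeR, with 0 at an unadjusted p under 0.05, and their sums ran from 25.2 to 48.8 CPM. The 5 erythroid markers all had an unadjusted p under 0.05 and a median log2 fold change of -2.26, and 0 were called. Over all genes, 5574 of 18846 had an unadjusted p under 0.05. Higher calls were made for 3 of 6 B and plasma cell markers, 1 of 6 capillary endothelium and 1 of 6 ciliated markers, where 5.31% of all genes were called higher. The part of these shifts in the lower MCM and GINS levels was not tested.

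In saline lungs saracatinib gave no call among the 10 genes by edgeR, where 0.00531% of all genes were called, and DESeq2 and limma voom gave 0 as well. At an unadjusted p under 0.05 there were 1401 of all 18846 genes tested and, among the 10, 1 gene, Gins2. It measured 1.04, 1.25, 1.47, 0.895 and 1.23 CPM with saracatinib, each above all 5 saline vehicle libraries, yet its log2 fold change of 0.93 (SE 0.30) had an adjusted p of 0.47 by edgeR. These values rest on 10 to 17 counts per library, against 5 to 9 with vehicle. For the helicase genes the log2 fold changes lay between -0.28 (Mcm5) and 0.18 (Mcm7).

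Bleomycin lungs given saracatinib were also set against saline vehicle lungs, which asks what is left of the injury change. Of the 10 genes, 1 was called higher, Gins2, where 5.83% of all genes were called higher. Its log2 fold change was 0.99 (SE 0.29, adjusted p = 0.036, edgeR), beside 2.34 without the drug. The 6 helicase genes lay between 0.18 and 0.25, with adjusted p from 0.28 to 0.42 by edgeR. The call of Gins2 was lost without replicate 1, 2, 3 or 5 of saline vehicle and without replicate 1, 4 or 5 of bleomycin saracatinib, with values from 0.80 to 1.05 and adjusted p up to 0.12 by edgeR. It was also lost without the low-count filter (1.00, adjusted p = 0.065) and without the farthest libraries (1.02, adjusted p = 0.061), by edgeR. Both this comparison and that of bleomycin use the same saline vehicle libraries.

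Whether the saracatinib effect depended on bleomycin was tested with an interaction term, the effect after bleomycin minus the effect after saline. Of the 10 genes, only Gins2 was called by edgeR, at -2.28 (SE 0.38, adjusted p = 0.010), where 0.446% of all genes were called lower. This value combines -1.35 in bleomycin lungs with 0.93 in saline lungs. The latter did not pass (adjusted p = 0.47, edgeR), and saline vehicle lungs had only 5 to 9 counts of Gins2 per library. All 10 interaction values were negative, from -2.28 to -0.05, and they share the same 4 groups. Mcm6 had -0.62 (SE 0.16, adjusted p = 0.062, edgeR). It was called without replicate 1 of bleomycin vehicle (-0.70, adjusted p = 0.021) and without replicate 1 of bleomycin saracatinib (-0.67, adjusted p = 0.036), by edgeR, and also by DESeq2 (-0.63, adjusted p = 0.017). For Mcm2, Mcm3 and Mcm5, lowered in bleomycin lungs, a difference from the saracatinib effect in saline lungs was not shown, with adjusted p of 0.32, 0.25 and 0.39 by edgeR.

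In the Ad-TGF-beta model, 1 of the 10 genes was called higher against the empty vector in vehicle lungs, Mcm4, where 11.5% of all 18834 genes tested were called higher. The share of the 10 genes called is thus near that of all genes. Mcm4 measured 25.6, 20.2, 25.2, 23.7 and 21.3 CPM with empty vector and 29.3, 30.7, 26.1, 29.0 and 30.5 CPM with Ad-TGF-beta. The groups did not overlap, and Mcm4 rose by 0.33 (SE 0.10, adjusted p = 0.016, edgeR). The median over the 10 genes was 0.31, beside -0.01 over all genes.

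The empty vector group was uneven, with replicate 3 its highest library for 7 of the 10 genes. Mcm5 measured 10.8, 10.5, 22.3, 13.5 and 9.82 CPM in empty vector vehicle lungs and 16.7, 18.2, 15.4, 16.6 and 19.1 CPM in Ad-TGF-beta vehicle lungs. Replicate 3 of the empty vector thus lay above all 5 Ad-TGF-beta libraries and the other 4 lay below them. The log2 fold change of Mcm5 was 0.36 (SE 0.19, adjusted p = 0.17, edgeR), and without that library it was 0.61 (adjusted p = 0.0073, edgeR).

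Without that library, Mcm2 (0.42, adjusted p = 0.013), Mcm3 (0.42, adjusted p = 0.013) and Mcm6 (0.35, adjusted p = 0.020) were called higher as well by edgeR, so that 5 of the 10 genes were. With it, they stood at 0.29 (SE 0.13, adjusted p = 0.11), 0.32 (SE 0.12, adjusted p = 0.057) and 0.26 (SE 0.11, adjusted p = 0.075) by edgeR. The share of all genes called without that library was not computed, so the 5 of 10 has no such share beside it. Mcm3 was also called without replicate 3 of Ad-TGF-beta vehicle (0.37, adjusted p = 0.048, edgeR) and by DESeq2 with all libraries (0.33, adjusted p = 0.042). Mcm6 was even under Ad-TGF-beta, at 38.4, 39.4, 37.1, 40.1 and 39.9 CPM, with an SD of 3.19% of the mean. The same figure was 16.3% in empty vector vehicle lungs. Mcm7 (-0.04, SE 0.09, adjusted p = 0.81) and Gins4 (-0.09, SE 0.09, adjusted p = 0.50) were again near 0 by edgeR.

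Gins2 measured 2.32, 1.46, 2.89, 0.912 and 1.64 CPM with empty vector and 2.07, 2.72, 2.53, 2.48 and 2.94 CPM with Ad-TGF-beta. Its log2 fold change was 0.44 (SE 0.26, adjusted p = 0.22, edgeR), and that of Gins1 was 0.49 (SE 0.30, adjusted p = 0.24, edgeR). Gins2 averaged 1.84 CPM in empty vector vehicle lungs and 0.608 CPM in saline vehicle lungs, and Mcm5 averaged 13.4 and 8.74 CPM. These control groups come from tables normalized separately and from different routes, and were not tested against each other.

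In the same comparison 8 of 8 macrophage markers (sums of 1274 to 2178 CPM with empty vector and 2570 to 2955 CPM with Ad-TGF-beta), 5 of 6 alveolar type 2 markers, 3 of 6 T cell markers, 3 of 4 tested neutrophil markers and 2 of 5 tested activated fibroblast markers were called higher. Over all genes, 11.5% were called higher. Lower calls were made for 6 of 6 ciliated, 1 of 6 B and plasma cell and 1 of 4 mesothelium markers, where 14.3% of all genes were called lower. The share for B and plasma cells is near that of all genes, and that for mesothelium rests on 1 gene. Capillary endothelium, striated muscle and erythroid markers had none by edgeR, with 1, 1 and 0 of them at an unadjusted p under 0.05. T cell sums spread from 21.1 to 78.5 CPM in the empty vector vehicle lungs and from 79.0 to 95.3 CPM with Ad-TGF-beta. The part of these shifts in the MCM and GINS levels was not tested.

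Saracatinib gave no call among the 10 genes in Ad-TGF-beta lungs by edgeR, where 0.0903% of all genes were called, and none had an unadjusted p under 0.05. DESeq2 and limma voom also called 0. Mcm5 measured 17.8, 9.95, 16.7, 14.7 and 16.4 CPM with saracatinib, a log2 fold change of -0.19 (SE 0.19) with a 95% interval, taken as 1.96 SE, of -0.55 to 0.18. Gins2 measured 2.42, 1.97, 2.35, 2.28 and 2.23 CPM, with -0.17 and an interval of -0.67 to 0.32. For Mcm6 the interval was -0.31 to 0.11. Replicate 2 of Ad-TGF-beta saracatinib was the lowest of its group for 9 of the 10 genes.

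In empty vector lungs saracatinib gave no call among the 10 by edgeR either, where 0.00531% of all genes were called. None of the 10 had an unadjusted p under 0.05, and DESeq2 and limma voom called 0. The largest value was that of Gins2, -0.38 (SE 0.27, adjusted p = 0.59, edgeR). Set against empty vector vehicle lungs, Ad-TGF-beta lungs given saracatinib also had no call among the 10 by edgeR, where 14% of all genes were called in either direction, with no unadjusted p under 0.05 and 0 calls by DESeq2 and limma voom. Their log2 fold changes ran from -0.07 (Gins4) to 0.28 (Gins1).

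The interaction of saracatinib with Ad-TGF-beta had 0 calls among the 10 genes by edgeR, DESeq2 and limma voom, and none at an unadjusted p under 0.05. Over all genes edgeR called 0 (0%), DESeq2 1 and limma voom 413, with 1933 genes at an unadjusted p under 0.05 in edgeR. Values of the 10 ran from -0.17 (Gins1) to 0.21 (Gins3).

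**Figure D4:**
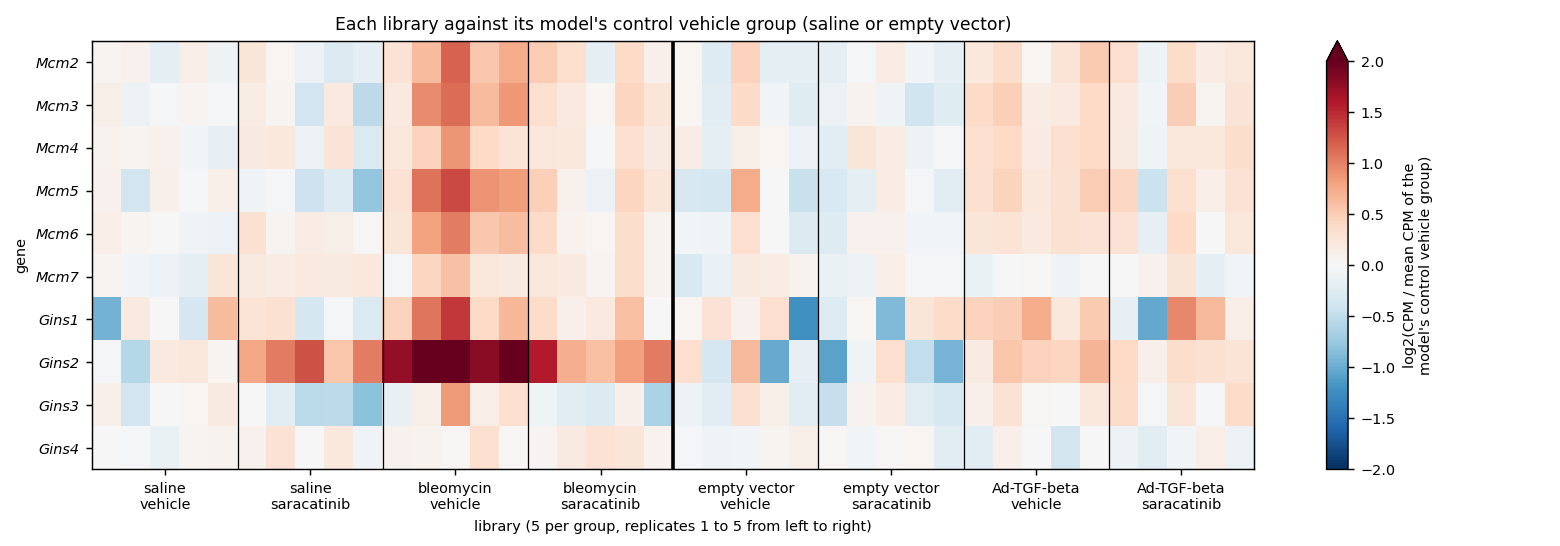
Log2 ratio of each library (columns, 5 per group) to the mean CPM of its model's control vehicle group, saline or empty vector, for the 10 genes (rows). The bleomycin vehicle block stands out for Gins2 and, less so, for Gins1, Mcm2, Mcm3, Mcm5 and Mcm6, strongest in replicate 3 for most genes, and 1 empty vector vehicle column, replicate 3, is high in the other model.

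The injury effects of the models were compared directly, in a fit of all 40 libraries. Of the 10 genes, only Gins2 was called different by edgeR, where 8.64% of all 19529 genes tested were called lower in this contrast. As a share of the 10 genes, this is near that of all genes. The injury effect on Gins2 was lower by 1.90 on the log2 scale in the Ad-TGF-beta model (SE 0.38, adjusted p = 0.00065, edgeR). All 10 differences were negative, with a median of -0.41. For Mcm6 (-0.42, SE 0.16, adjusted p = 0.070), Mcm7 (-0.34, SE 0.14, adjusted p = 0.086), Mcm3 (-0.47, SE 0.20, adjusted p = 0.11) and Mcm5 (-0.57, SE 0.26, adjusted p = 0.14) the difference did not pass by edgeR.

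Several of these turned on single libraries. Without replicate 1 of bleomycin vehicle, Mcm3 (-0.57, adjusted p = 0.029), Mcm6 (-0.48, adjusted p = 0.023) and Mcm7 (-0.39, adjusted p = 0.036) were called by edgeR. Mcm6 was called without replicate 5 of empty vector vehicle (-0.46, adjusted p = 0.044). Mcm7 was called without its replicate 1 (-0.38, adjusted p = 0.035) and without replicate 5 of saline vehicle (-0.41, adjusted p = 0.035), by edgeR. With the 4 farthest libraries left out, Mcm5 (-0.81, adjusted p = 0.029), Mcm6 (-0.49, adjusted p = 0.039) and Mcm7 (-0.48, adjusted p = 0.013) were called as well by edgeR, and limma voom with all libraries called Mcm7 (-0.37, adjusted p = 0.022). Over all genes, 4235 and 4756 were called in either direction in these 2 fits, beside 2951 by edgeR with all libraries. In the fit of all libraries by edgeR, an effect that passed with bleomycin and not with Ad-TGF-beta is therefore shown to differ for Gins2 and not for the helicase genes.

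The saracatinib effect in injured lungs was compared between models in the same way. None of the 10 genes was called by edgeR, where 2.46% of all genes were called. At an unadjusted p under 0.05 there were 4 of the 10, beside 3198 of all 19529 genes tested. DESeq2 called 1 of the 10, Gins2 (1.19, adjusted p = 0.045), and limma voom called 0. By edgeR the effect on Gins2 was 1.17 higher in the Ad-TGF-beta model (SE 0.35, adjusted p = 0.063). It was called without replicate 1 of bleomycin vehicle (1.28, adjusted p = 0.031), its replicate 4 (1.27, adjusted p = 0.042), replicate 1 of bleomycin saracatinib (1.36, adjusted p = 0.025) or replicate 4 of empty vector vehicle (1.17, adjusted p = 0.049), by edgeR.

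Other genes of DNA replication and the cell cycle were taken from 10 lists of 90 genes. With bleomycin, edgeR called 53 of the 89 tested genes higher and 3 lower, where 20.6% of all genes were called higher and 20.3% lower. In the step before the helicase, 3 of 9 origin recognition and loading genes rose and 1 fell. The origin recognition subunit Orc1 rose by 1.96 (SE 0.53, adjusted p = 0.0065), the loading factor Cdt1 by 1.05 (SE 0.20, adjusted p = 0.00050), and Orc5 fell by 0.33 (SE 0.10, adjusted p = 0.010), by edgeR. Of 9 firing genes, which turn the loaded ring into the active helicase, 6 rose, with Ticrr at 1.64 (SE 0.30, adjusted p = 0.00025) and Mcm10 at 1.12 (SE 0.26, adjusted p = 0.0023), by edgeR.

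The relatives Mcm8, Mcm9 and Mcmbp did not pass with bleomycin, with log2 fold changes of -0.09, -0.07 and 0.08, and Mcmdc2 was not tested. Mcm8 and Mcm9 form a helicase of DNA repair, and Mcmbp binds MCM subunits. Of 12 polymerase genes 3 rose, a share near that of all genes, among them Pole at 1.09 and Pole2 at 0.80, and the list's median was 0.04. Of 12 clamp, loader and strand maturation genes 5 rose, with the flap nuclease Fen1 at 1.34 and the clamp loader Rfc5 at 0.81, and 4 of 5 fork protection genes rose, with Clspn at 1.67 and Wdhd1 at 0.77. Nucleotide supply rose in 7 of 7 genes, with the ribonucleotide reductase subunit Rrm2 at 1.78 and the thymidine kinase Tk1 at 1.05.

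Of the G1/S regulators 10 of 11 rose with bleomycin, with the cyclins Ccne1 at 1.94 and Ccna2 at 1.81. The mitosis list rose in 11 of 12 genes, with Ccnb1 at 2.63 and Cdk1 at 2.14, and its median of 1.80 lay above that of the helicase, 0.69. Of 9 cell cycle inhibitors 4 rose and 2 fell. Cdkn2a rose by 2.52 and Cdkn2b by 1.18, while Cdkn1c fell by 0.80 and Rb1 by 0.26.

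Under saracatinib in bleomycin lungs edgeR called 39 of the 89 genes lower and 0 higher, where 8.71% of all genes were called lower and 5.31% higher. At an unadjusted p under 0.05 in either direction there were 50 of the 89, beside 5574 of all 18846 genes tested. The counts of lower calls were 2 of 9 for loading, with Cdc6 at -0.90 and Cdt1 at -0.63, and 5 of 9 for firing, with Ticrr at -1.38 and Mcm10 at -1.11. They were 2 of 12 for polymerases (Pole -0.89, Prim2 -0.35), 4 of 12 for clamp, loader and maturation (Fen1 -0.86, Lig1 -0.44) and 4 of 5 for fork protection (Clspn -1.54, Chek1 -0.80). Further, 4 of 7 nucleotide supply genes (Rrm2 -1.55, Rrm1 -0.57), 5 of 11 G1/S regulators (Ccna2 -1.51, E2f7 -1.17) and 12 of 12 mitosis genes (Ccnb1 -1.85, Tpx2 -1.82) were lower. Among inhibitors only Cdkn2a passed, at -1.17, and the 3 tested genes of the other MCM proteins had a median of 0.04. The median of the mitosis list was -1.50, beside -0.47 for the helicase and -0.54 for GINS.

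With Ad-TGF-beta edgeR called 11 of the 90 genes higher and 1 lower, where 11.5% of all genes were called higher and 14.3% lower, so that the share called higher is near that of all genes. These were 1 of 9 firing genes (Dbf4 0.38), 1 of 12 polymerase genes (Pole2 0.64), 2 of 7 nucleotide supply genes (Dck 0.49, Rrm1 0.32), 4 of 11 G1/S regulators (among them Ccne2 0.76 and E2f1 0.39) and 3 of 9 inhibitors (among them Cdkn2a 2.12 and Cdkn2b 0.75). Gmnn, which blocks reloading of the ring, fell by 0.53. Of the 12 mitosis genes, 0 were called by edgeR and 0 had an unadjusted p under 0.05, with a median of 0.30. Saracatinib gave 0 calls by edgeR among the 90 genes in Ad-TGF-beta lungs and in empty vector lungs and among the 89 tested in saline lungs, with 3, 7 and 4 genes at an unadjusted p under 0.05. Over all genes, the numbers at that p were 1649 and 2084 of 18834 and, in saline lungs, 1401 of 18846. By edgeR, the injury effect was lower in the Ad-TGF-beta model for 27 of the 90 genes and higher for 2, where 8.64% of all genes were lower and 6.47% higher. The saracatinib effects in injured lungs differed for 11, all higher there, where 1.41% of all genes were higher.

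**Figure D5:**
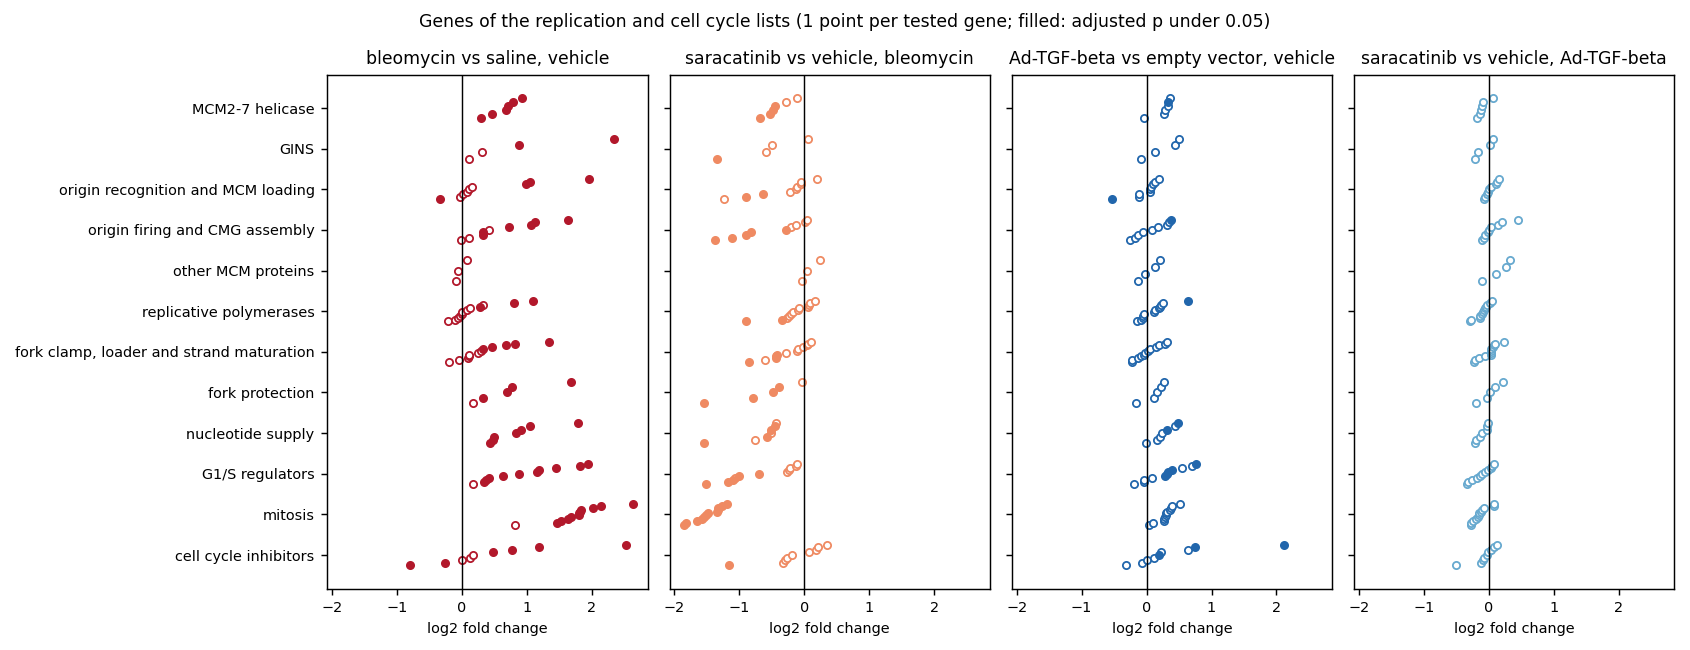
Log2 fold change (x axis) of each tested gene in the helicase and GINS sets and the 10 other lists (rows), in 4 comparisons, with filled points for adjusted p under 0.05 by edgeR. The mitosis points lie farthest from 0 with bleomycin (median 1.80) and with saracatinib in bleomycin lungs (median -1.50).

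Correlations between libraries of a group were higher among helicase genes than among GINS genes, as a description. Over 40 libraries, after the mean of each group was taken away, the 15 pairs of helicase genes had correlations of log2 CPM from 0.26 to 0.80 with a median of 0.69, whereas the 6 GINS pairs ran from -0.13 to 0.46 with a median of 0.12. Against the mean of the other 9 genes, Mcm6 had r = 0.86 and Mcm5 0.86, while Mcm7 had 0.51, Gins2 0.47, Gins1 0.35 and Gins4 0.05. Gins3, which did not pass in any comparison, had 0.78. These correlations are a description: the points share library and depth, and the low counts of Gins1 and Gins2 limit theirs.

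By the mean of the 10 genes, each centred on the log2 CPM scale with all 40 libraries normalized together, bleomycin vehicle replicate 3 ranked first of 40 and replicate 2 second. Ad-TGF-beta vehicle replicates 5 and 2 ranked 3 and 5, Ad-TGF-beta saracatinib replicate 3 ranked 4, and empty vector vehicle replicate 3 ranked 6. The 5 saline vehicle libraries held ranks 31, 35, 36, 37 and 39. Among 17839 other genes with a mean of at least 1 CPM, those most like this mean over the 40 libraries were the linker histone gene Hist1h1d (r = 0.96), the spindle checkpoint kinase gene Bub1b (0.95), the ribonucleotide reductase gene Rrm1 (0.95), Hist1h3f (0.95), Hist1h1b (0.94), Hist1h1a (0.94), Hist1h4f (0.94) and the condensin gene Ncapg2 (0.94). With group means taken away their r ran from 0.82 to 0.88. Of the 8 genes, 5 are histone genes.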

How the data were processed

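Per the labels' protocols, RNA of left lungs was made into stranded libraries after ribosomal RNA depletion. Per the submitters' processing notes, the tools were STAR 2.6.1d, Picard, Subread 1.6.3, featureCounts and edgeR, and both mm9 and GRCm38 are named as builds. The sources used here do not state the strand setting. The authors deposited raw counts per Ensembl gene, 1 table of 20 libraries per model, and all 55536 identifiers matched GENCODE M21. The other deposited tables were not used here.

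Counts were tested with edgeR 4.0.16 (R 4.3.3): genes with low counts removed by filterByExpr, TMM scaling, a quasi-likelihood fit of the 20 libraries of a model (all 40 for contrasts between models), and Benjamini-Hochberg adjustment over all genes tested. Alternatives were DESeq2 1.42.0, its size factors in edgeR, limma 3.58.1 voom with quality weights, no low-count filter, only the compared groups, no farthest libraries, and each library left out in turn. The fits were tested on simulated data. The members and lists were chosen with earlier results of these data known. All 10 members are named in every comparison, and of each other list up to 2 called genes per direction with the largest change, in the injury comparisons and in saracatinib within injured lungs; the 3 tested relatives in the list of other MCM proteins are given as well, chosen after their values were seen. Likeness is Pearson's r of log2 CPM with a prior count of 2.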

Additional observations from a re-analysis of the deposited data

Results flagged for a closer look

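In 80 groups of 5 libraries (10 genes in 8 groups), 2 held a library far from the others on the log2 CPM scale, where about 1 in 20 groups is marked by chance. Gins4 measured 15.0 CPM in bleomycin vehicle replicate 4, with the next library at 12.6 CPM. Gins1 measured 0.511 CPM in empty vector vehicle replicate 5, from 5 counts, with the next library at 1.24 CPM.

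Gins2 differed between groups under the same contrast in 2 tests by edgeR. The saracatinib effect was lower by 2.28 on the log2 scale in bleomycin than in saline lungs, the value of the interaction being -2.28 (adjusted p = 0.010). It combines -1.35 in bleomycin lungs with 0.93 in saline lungs, and the latter did not pass (adjusted p = 0.47, edgeR). The injury effect in the Ad-TGF-beta model minus that in the bleomycin model was -1.90 (adjusted p = 0.00065). These 2 results share the bleomycin vehicle and saline vehicle libraries.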

How the results depend on the processing

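The 8 calls with bleomycin became 7 with only the compared groups, and 7 to 8 when each library was left out. Of the 5 calls with saracatinib in bleomycin lungs, 4 were left without the low-count filter, with voom and with only the compared groups, and 3 to 6 when each library was left out. The single call of bleomycin saracatinib against saline vehicle went to 0 without the low-count filter and without the farthest libraries (0 to 1 when each library was left out). Over all genes, in either direction, calls with bleomycin went from 7716 to 7023 with only the compared groups. For saracatinib in bleomycin lungs they went from 2643 to 1925, 2886 and 2020 in the 3 settings named. For bleomycin saracatinib against saline vehicle they went from 1737 to 1517 and 1631. DESeq2 gave 2 calls in place of 1 for the bleomycin interaction and for Ad-TGF-beta, adding Mcm6 and Mcm3, and 1 in place of 0 for the difference in saracatinib effects. The ranges with each library left out were 1 to 2, 1 to 5 and 0 to 1 in these 3 comparisons. Over all genes, DESeq2 called 838, 5224 and 766 in them, in either direction, beside 199, 4865 and 481 by edgeR. For the difference in injury effects, calls among the 10 genes went from 1 to 2 with voom and to 4 without the farthest libraries (1 to 4 with each library left out). Over all genes, calls in either direction went from 2951 to 4756 with voom and to 4235 without the farthest libraries. The cause of these changes was not tested. Fits that left libraries out also rested on fewer libraries. For the fits with 1 library left out, the share of all genes called was not computed. The comparisons of saracatinib in saline, Ad-TGF-beta and empty vector lungs, of Ad-TGF-beta saracatinib with empty vector vehicle, and the Ad-TGF-beta interaction kept 0 calls under every alternative run. Of 3480 recomputed log2 fold changes of the 10 genes, 72 changed sign, and 0 of those belonged to a gene called under any setting of its comparison. No paired analysis was possible because the groups compared within a model share none of the numbers in the sample titles, and groups of different models share at most 1. Depth limits Gins1 and Gins2 most, with 5 to 37 and 5 to 74 counts per library.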
